A study of Mus musculus with 30 samples.

Results

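Hearts of mice with the p.S55L substitution in CHCHD10 were compared with hearts of wild-type (WT) mice on the day of delivery. Per the labels, mice of both genotypes were bred at 65 days of age and killed 0 days postpartum (PP), and heart is the stated tissue. The 2 groups, S55L PP and WT PP, were taken by their titles and hold 10 of the 30 samples of the series, 5 each. Columns 1 and 2 of each group hold the same count for every gene, so each such pair was used once and 8 distinct libraries entered, WT PP 1, 3, 4 and 5 and S55L PP 1, 3, 4 and 5 (n = 4 each). The other groups used here are naive WT and naive S55L mice aged to 100 days (n = 5 each). They set the postpartum difference beside the difference outside pregnancy. They also entered the same fit, so the filter, scaling and estimate of spread behind the postpartum p-values rest on them too. The labels give neither the copy number of the mutant allele nor the strain, parity, litter size or diet of these groups, and do not say whether the libraries come from separate mice. The p-values therefore reflect only how far these libraries vary. Libraries were made with a 3' mRNA kit that reads the end of each transcript, so the counts do not reach the changed codon and cannot check the genotype.

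CHCHD10 is a small protein of the mitochondrial intermembrane space. Substitutions in it are a known cause of mitochondrial disease of motor neurons, muscle and heart. A mitochondrial fault can be relayed to the cytosol through the protease OMA1 and its substrate DELE1 to kinases that phosphorylate eIF2alpha, and this integrated stress response (ISR) favours translation of ATF4 and related factors. ATF4 and its partners read the C/EBP-ATF response element and raise genes of amino acid synthesis and transport, tRNA charging and secreted factors such as GDF15 and FGF21. The heart of a pregnant mouse grows and changes its fuel use, and at delivery it carries the load of late gestation.

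The sequences of 8 promoters are shown because they belong to genes of the stress groups described below and hold a core of 1 of 2 elements before the start site. The core TGATGNAA belongs to the C/EBP-ATF response element, and the core TGACNNNGC to the antioxidant response element read by NRF2; both were searched on both strands from 250 bases before to 50 bases after each start site in RefSeq promoters of build GRCm38.p6. Capitals mark each match, and each stretch holds 30 bases on either side of the first match, or fewer where the start site comes first. The stretches are chr1:191183406-191183473 for Atf3, chr2:119351019-119351086 for Chac1, chr7:45615592-45615659 for Fgf21, chr6:7693210-7693262 for Asns, chr3:50443642-50443709 for Slc7a11, chr6:55037941-55038000 for Gars, chr3:122245393-122245461 for Gclm and chr4:116685436-116685504 for Prdx1. Chac1, Gars, Gclm and Prdx1 lie on the plus strand and the other 4 on the minus strand, and all are printed 5′ to 3′ along the gene.
Atf3: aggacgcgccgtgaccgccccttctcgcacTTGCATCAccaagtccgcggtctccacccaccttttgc
Chac1: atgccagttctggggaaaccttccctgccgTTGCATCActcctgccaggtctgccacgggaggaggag
Fgf21: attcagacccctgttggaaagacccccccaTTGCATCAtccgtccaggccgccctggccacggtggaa
Asns: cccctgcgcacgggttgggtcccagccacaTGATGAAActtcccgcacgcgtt
Slc7a11: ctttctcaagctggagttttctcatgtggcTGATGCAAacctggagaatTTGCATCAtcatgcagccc
Gars: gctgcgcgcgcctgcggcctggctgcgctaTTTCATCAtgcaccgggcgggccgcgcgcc
Gclm: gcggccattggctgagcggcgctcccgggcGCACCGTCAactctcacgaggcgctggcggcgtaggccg
Prdx1: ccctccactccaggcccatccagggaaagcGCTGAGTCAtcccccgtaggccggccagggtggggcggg
The first base of the match lies at position -110 from the start site in Atf3, -193 in Chac1, -139 in Fgf21, -23 in Asns, -66 in Slc7a11, which holds a second match at -47, -30 in Gars, -134 in Gclm and -133 in Prdx1. The TGATGNAA core was present in 4.51% of all 27025 genes with a promoter and in 2.93% of the 8769 tested genes with one. Of all genes called higher with a promoter, 4.59% held it. It was present in 5 of the 8 cytosolic tRNA synthetase genes with a promoter that were called higher (62.5%), against 5 of 12 measured (41.7%). Among ISR effector genes it was in 4 of 7 called higher (57.1%) and in 6 of 11 measured (54.5%). Among serine, one-carbon and proline genes it was in 2 of 8 called higher (25%) and in 2 of 13 measured (15.4%). The TGACNNNGC core, a looser motif, was present in 17.1% of tested genes, 18.5% of those called higher and 18.1% of those called lower. In the NRF2 and glutathione list it was in 6 of the 12 genes called higher with a promoter (50%) and in 8 of 15 measured (53.3%). So the match was about as common among all measured members of this list as among those called higher. The promoters of Atf4, Gdf15, Mthfd2, Psat1 and Phgdh hold no TGATGNAA in this window, and those of Nqo1 and Gstm1 no TGACNNNGC. A match is a run of letters, and binding was not measured.

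WT PP libraries held 1897249 to 2949993 reads on genes and S55L PP libraries 2755500 to 4157372, and 11945 genes passed the filter on low counts. The first principal component of the 8 libraries held 55.6% of the variance and separated the genotypes, with WT PP 5 the WT library nearest to the mutant side. WT PP 5 was also the WT library nearest to S55L in 38.1% of the called genes, more often than any of the other 3. Genotype and position on the library plate were almost the same split. WT PP 3, 4 and 5 lay in plate column 1, S55L PP 1, 3 and 4 in column 3, and only WT PP 1 and S55L PP 5 shared column 2. Between these 2 libraries 97.3% of the called genes had the direction of the full comparison. Both libraries entered the fit that made the calls, so this share was high partly by construction and cannot separate plate from genotype. All WT naive libraries lay in column 1 and all S55L naive libraries in column 2. With the plate column as a term, the postpartum contrast therefore rested on WT PP 1 against S55L PP 5 alone. Every postpartum value, call and adjusted p given below with the plate term is in effect a comparison of 1 library with 1. It shows the difference within that pair and does not adjust for the plate. Markers of heart muscle were high in all 8 libraries. Of other tissues, 4 of 5 lung epithelial markers (Sftpc, Sftpb, Sftpa1 and Sftpd) were at 0 in all 8 libraries and the list summed to at most 0.312 CPM, and the thymocyte markers Rag1 and Dntt were at 0.

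The transcript of Chchd10 (ENSMUSG00000049422) is given first. Its level was 2355, 3151, 2891 and 5244 CPM (counts scaled to the size of each library) in WT PP 1, 3, 4 and 5 and 3037, 4018, 3605 and 6021 CPM in S55L PP 1, 3, 4 and 5, and library order is the same in every such sentence here. The groups overlapped, and the number 5 library was the highest in each. The log2 fold change, S55L minus WT throughout, was 0.29 ± 0.21 (SE), adjusted p = 0.311 with edgeR's quasi-likelihood test and Benjamini-Hochberg adjustment. Without WT PP 5 it was 0.58 (adjusted p = 0.024), with scaling by total counts 0.57 (adjusted p = 0.0355), and with the plate column as a term 1.35 (adjusted p = 0.00834). Chchd2, its paralog, had a log2 fold change of -0.06 ± 0.20 (adjusted p = 0.835).

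**Figure D1:**
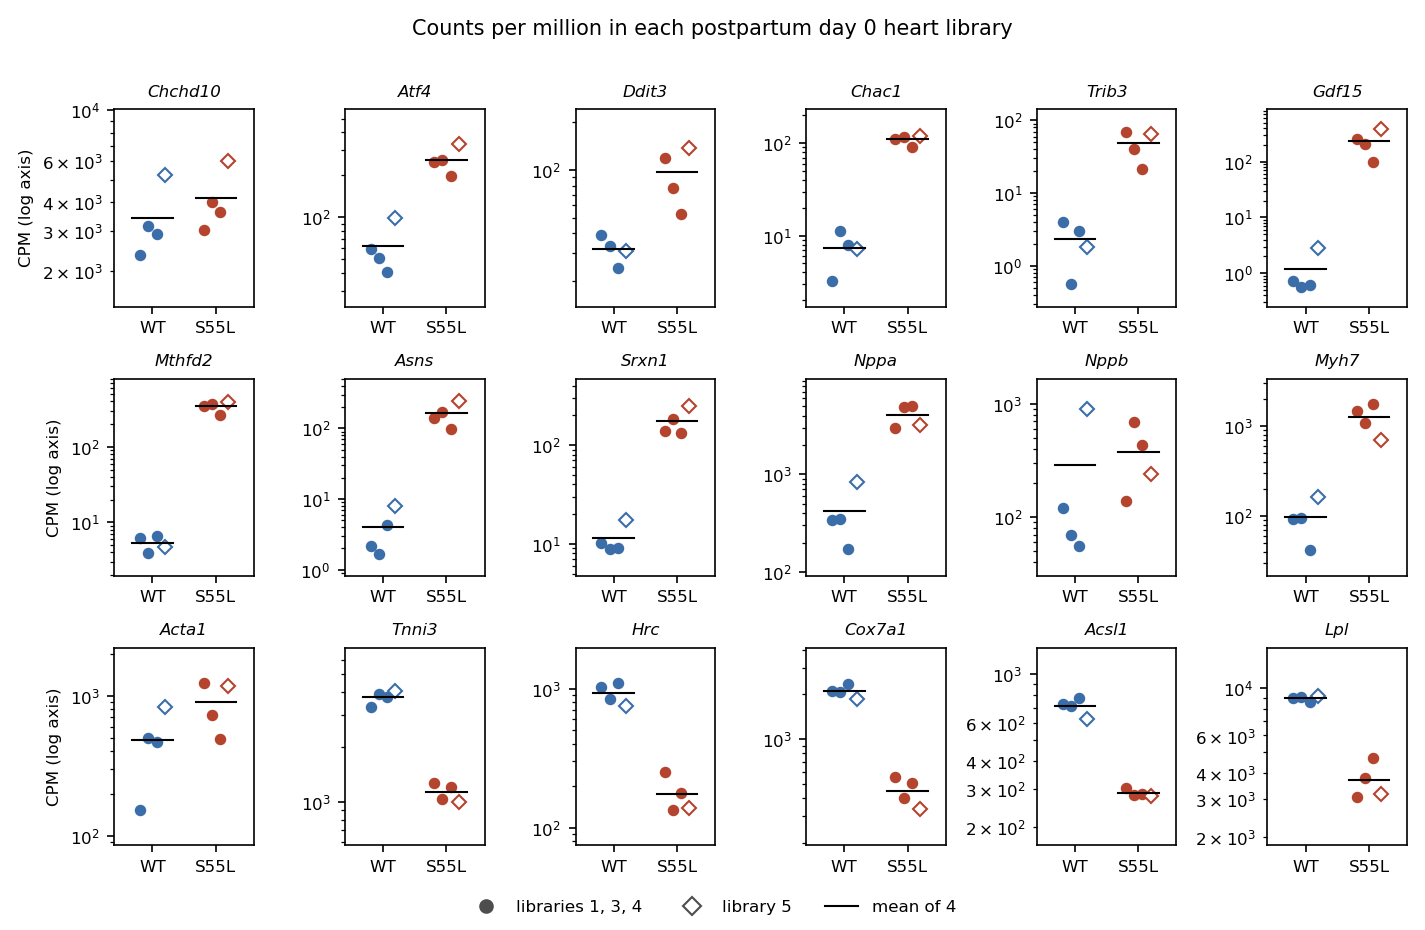
Level of 18 genes in each postpartum day 0 heart library, in CPM on a log axis; circles are libraries 1, 3 and 4, open diamonds are library 5, and the line is the mean of 4. The genotypes overlap for Chchd10, Nppb and Acta1 and for none of the other 15 genes. Library 5 is the highest WT library for Chchd10, Atf4, Gdf15, Asns, Srxn1, Nppa, Nppb, Myh7 and Acta1. It is also the highest for Tnni3 and Lpl, which are lower in S55L.

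In all, 3767 of 11945 genes were called at an adjusted p below 0.05 (31.5%), 1951 higher in S55L (16.3%) and 1816 lower (15.2%). Of these, 961 rose and 847 fell by at least 2-fold, which is 8.05% and 7.09% of the genes tested. The genotypes had no overlapping libraries for 3036 genes (25.4%). The median log2 fold change of all tested genes was -0.0007, and scaling by total counts in place of trimmed means moved it by 0.27, which turned the split to 3458 higher and 977 lower (78% of calls higher, against 51.8%). Counts of list members are read against these shares.

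The largest rises among genes that averaged 5 CPM or more and carry a proper symbol (no Gm, Rik or clone name) were from almost no reads. Gm3776, a predicted gene left out by that rule and given after its values were seen, had a larger one, from 0 WT reads to 963 in S55L (at least 193-fold higher). Slc7a3, a transporter of cationic amino acids, had 0 reads over the 4 WT libraries and 12, 21.1, 14.3 and 21.5 CPM in the S55L libraries, or at least 51.9-fold higher against a floor of 3 counts over the WT group, which is 0.334 CPM. Vmn2r3, annotated as a vomeronasal receptor, had 0 WT reads and 36, 37.1, 17.2 and 45.2 CPM, at least 101-fold higher, and Cyb5r2, a cytochrome b5 reductase, had 0 WT reads and was at least 39.5-fold higher. Gsta2, a glutathione transferase, had 2 WT reads against 1050 in S55L (ratio 316, 95% counting interval 87.2 to 2610). Krt18, an intermediate filament keratin, had 1 WT read against 357 (ratio 215, 38.3 to 8510). Ltbp2, a matrix protein, had 1 against 242 (ratio 146, 25.9 to 5770), and Ostn, which encodes the natriuretic receptor ligand osteocrin, had 1 against 246 (ratio 148, 26.3 to 5870). Vmn2r3 and Gsta2 belong to families of near-identical genes and the strand setting of the count is not given in the sources used here, so which copy the reads come from is uncertain. In each of these genes every S55L library was above every WT library.

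Under the same rule the largest falls included the phosphofructokinase regulator Pfkfb1, the Z-disc protein Myot (myotilin) and the pacemaker channel Hcn4. Rpl3l, the striated muscle form of a ribosomal protein, was 209.7, 332, 347 and 196 CPM in WT and 13.1, 25.4, 26.9 and 12.5 CPM in S55L. The groups were far apart, with a log2 fold change of -3.78 ± 0.34 (adjusted p = 7.54e-08). The paralog of Rpl3l, Rpl3, went the other way (1.14, adjusted p = 3.14e-05), and reads of the pair may have been split by the counting. Pfkfb1 had -4.36 ± 0.43 on the log2 scale, Myot -4.27 ± 0.46, Hcn4 -3.68 ± 0.40 and Lingo3 -4.79 ± 0.48. Ces1d, a carboxylesterase that acts on lipid esters, had -4.12 ± 0.34, the postsynaptic scaffold gene Shank3 -4.02 ± 0.58, and the orphan receptor gene Gpr22 -3.81 ± 0.32. Chaer1, a heart-enriched long noncoding RNA, had -3.44 ± 0.42. None of these 9 genes overlapped between the genotypes, and all 9 had an adjusted p below 0.05; with the plate term that of Shank3 was 0.0515. In bulk tissue, fewer cells of a type and less RNA per cell cannot be told apart.

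The ISR genes were read from its mitochondrial sensors outward. Dele1, whose product carries the mitochondrial signal, fell from 57, 37.4, 39.9 and 55.9 CPM to 19.3, 15.7, 17.5 and 20.9 CPM, with no overlap and a log2 fold change of -1.39 ± 0.19 (adjusted p = 2.97e-06). Of the 12 sensors, kinases and eIF2 factors measured, 2 were called higher and 2 lower, with a median of 0.06 that ran from -0.004 with the plate term to 0.34 with total counts. The 4 eIF2alpha kinases were not called: Eif2ak1, the kinase downstream of DELE1, had 0.18 ± 0.19, Eif2ak2 0.55 ± 0.32, Eif2ak3 -0.15 ± 0.41 and Eif2ak4 -0.08 ± 0.25. Oma1, the protease that cleaves DELE1, had -0.46 ± 0.15 (adjusted p = 0.0209), which total counts moved to -0.18 (adjusted p = 0.374) and no filter to -0.38 (adjusted p = 0.2). Its adjusted p was 0.0589 without WT PP 1, 0.0642 without WT PP 4 and 0.0754 without S55L PP 5.

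Of 9 transcription factors of the ISR, 7 rose and none fell (median 1.58). Atf4, the central factor, was 59.1, 51.4, 41.1 and 98.3 CPM in WT libraries and 245, 254, 195 and 328 CPM in S55L libraries. Every S55L library was above every WT library, WT PP 5 was the highest of its group, and the log2 fold change was 2.02 ± 0.20 (adjusted p = 1.76e-08). Atf5, a factor of the mitochondrial stress response, rose from 15.2, 11.7, 16.9 and 29.1 to 104, 79.5, 69.5 and 90.1 CPM (2.2 ± 0.27, adjusted p = 1.07e-06). Ddit3, which encodes CHOP, was 38.8, 33.5, 24.2 and 31.2 CPM in WT and 119, 77.3, 52.8 and 138 CPM in S55L, again without overlap (1.58 ± 0.24, adjusted p = 1.19e-05). Atf3 rose by 3.0 ± 0.61 and Cebpg, a C/EBP partner of ATF4, by 1.32 ± 0.17. Cebpb was the member nearest to 0, at 0.02 ± 0.29.

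Among 14 effectors and secreted factors, 9 rose and 1 fell (median 1.44). Gdf15, a hormone that reduces food intake, was 0.725, 0.558, 0.604 and 2.87 CPM in WT and 253, 206, 100.2 and 389 CPM in S55L. The lowest mutant library was far above WT PP 5, the highest WT library, and the log2 fold change was 7.44 ± 0.56 (adjusted p = 1.88e-08). Fgf21, a fasting hormone, had no reads in any WT library and 1.96, 5.62, 2.15 and 4.99 CPM in S55L libraries, at least 11.2-fold higher. Chac1, which degrades glutathione, was 3.26, 11.2, 7.85 and 7.17 CPM in WT and 111, 118, 90.2 and 121 CPM in S55L, a 15.5-fold rise (3.96 ± 0.27 on the log2 scale, adjusted p = 4.88e-11). Trib3, a pseudokinase that feeds back on ATF4, was 3.99, 0.558, 3.02 and 1.79 CPM in WT and 69.6, 40.7, 21.3 and 64.8 CPM in S55L (4.31 ± 0.37, adjusted p = 2.02e-09). Both were separated between the genotypes in all libraries. The member that fell was Vldlr, a lipoprotein receptor (-0.90 ± 0.17, adjusted p = 0.000144), and Ddit4 and Herpud1 were not called, at -0.67 ± 0.59 and -0.33 ± 0.19.

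Many genes of amino acid synthesis and transport rose. Of 16 measured genes of serine, one-carbon and proline synthesis 10 rose and none fell (median 2.05). Mthfd2, the mitochondrial folate dehydrogenase, had the lowest adjusted p of any list member: its level was 6.17, 3.91, 6.64 and 4.66 CPM in WT and 347, 372, 266 and 398 CPM in S55L. Both groups were tight, and the difference was 64.3-fold (log2 6.01 ± 0.27, adjusted p = 5.75e-15). Asns, asparagine synthetase, was 2.18, 1.68, 4.23 and 7.89 CPM in WT and 141, 168, 97.5 and 246 CPM in S55L (5.28 ± 0.37, adjusted p = 7.12e-10). In serine synthesis, Psat1 rose by 4.88 ± 0.40, and Phgdh, the first enzyme, went from 3 to 248 reads over the group (ratio 49.7, counting interval 16.8 to 243). Aldh18a1, of proline synthesis, rose by 2.98 ± 0.28. The cytosolic counterpart Mthfd1 and the related mitochondrial enzyme gene Mthfd2l were not called, at 0.14 ± 0.18 and -0.12 ± 0.41.

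Of 15 amino acid transporters 9 rose and none fell (median 1.91). Slc38a1, a glutamine carrier, was 20.3, 13.4, 12.7 and 16.5 CPM in WT and 59.8, 83.1, 63 and 62.7 CPM in S55L (2.07 ± 0.18, adjusted p = 1.38e-09). Slc3a2, the shared heavy chain of several exchangers, rose by 2.01 ± 0.24, the glycine carrier Slc6a9 by 3.36 ± 0.33, and the cystine carrier Slc7a11 went from 3 to 144 reads (ratio 28.9, counting interval 9.68 to 142). All 4 had no overlap between the genotypes. Of 20 cytosolic tRNA synthetases, which charge tRNAs with amino acids, 15 rose and none fell (median 1.27). Gars, the glycyl enzyme, was 58, 71.5, 56.2 and 76.4 CPM in WT and 275, 470.3, 284 and 418 CPM in S55L (2.46 ± 0.20, adjusted p = 3.86e-10), and Lars, Eprs, Cars and Nars rose by 1.67, 1.6, 1.93 and 1.76 (SE 0.16, 0.18, 0.23 and 0.21). By contrast, of the 17 mitochondrial tRNA synthetases none rose and 4 fell, with a median of -0.31; the leading one, Cars2, had -0.63 ± 0.16 (adjusted p = 0.00356), which total counts moved to -0.35 (adjusted p = 0.111) and the plate term to -0.76 (adjusted p = 0.101). With total counts none of the 17 was called lower, and 2, 2, 1 and 1 were without WT PP 3, WT PP 5, S55L PP 3 and S55L PP 4.

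NRF2 is a transcription factor that raises enzymes of glutathione and of NADPH-driven reduction, and 16 of the 19 measured genes of its list rose while none fell (median 1.86). Srxn1, sulfiredoxin, was 10.2, 8.93, 9.06 and 17.6 CPM in WT and 139.7, 183, 133 and 249 CPM in S55L, a 14.9-fold rise (3.9 ± 0.23, adjusted p = 1.49e-12). Nqo1, a quinone reductase, was 25, 15.6, 16.9 and 15.1 CPM in WT and 129, 116, 179 and 147 CPM in S55L (2.96 ± 0.20, adjusted p = 1.95e-11). Neither gene overlapped between the genotypes. Gclm, of glutathione synthesis, rose by 2.61 ± 0.21, and the transferases Gsta4 and Gstm1 rose by 1.97 ± 0.17 and 2.38 ± 0.21. The transcript of the factor itself, Nfe2l2, did not pass the test (0.16 ± 0.21, adjusted p = 0.612), nor did that of its inhibitor Keap1 (-0.33 ± 0.21, adjusted p = 0.236). Keap1 was called lower without WT PP 5 (-0.53, adjusted p = 0.0351) and without S55L PP 1 (-0.56, adjusted p = 0.0312).

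Of 21 peroxidases, superoxide dismutases and metal-binding genes 6 rose and 2 fell (median 0.37, and 0.18 without S55L PP 5); 10 rose with total counts and 3 when only these 2 groups were fitted. Cat, the peroxisomal catalase, rose from 205, 156, 204 and 223 to 529, 705, 652 and 903.2 CPM (1.82 ± 0.16, adjusted p = 1.38e-09), and the peroxiredoxin Prdx1 rose by 1.22 ± 0.15. Sod2, the mitochondrial dismutase, had -0.53 ± 0.13 (adjusted p = 0.00245), a call that was lost with total counts (-0.25, adjusted p = 0.144), the plate term (-0.31, adjusted p = 0.401) and no filter (-0.46, adjusted p = 0.0514). Gpx4, which reduces lipid peroxides, was not called (0.12 ± 0.58, adjusted p = 0.9).

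Protein folding genes were read by compartment. In mitochondria 5 of 17 chaperones and proteases rose and 1 fell (median 0.33), and 9 rose with total counts. Lonp1, the matrix protease, was 71.1, 76.5, 65.2 and 76.4 CPM in WT and 236, 241, 217 and 313 CPM in S55L, without overlap (1.8 ± 0.16, adjusted p = 1.23e-09). The inner membrane protease Afg3l2 rose by 0.82 ± 0.16, and the chaperones Hspa9 and Hspd1 rose by 0.63 ± 0.15 and 0.61 ± 0.16. In the cytosolic heat shock list 8 of 16 rose and none fell (median 0.59), and 4 rose with the plate term. Sqstm1, the autophagy receptor p62, was 318, 222, 238 and 184 CPM in WT and 1689, 1794, 1314 and 2016 CPM in S55L (2.82 ± 0.19, adjusted p = 1.92e-11), Hsp90aa1 rose by 2.06 ± 0.20, and Cryab by 1.16 ± 0.23. In the endoplasmic reticulum 5 of 21 genes rose and 2 fell (median -0.05, which ran from -0.29 with the plate term to 0.22 with total counts and was 0.08 without WT PP 5 and 0.11 without S55L PP 4, so it has no stable sign). There Derl1, of protein export for degradation, rose by 1.19 ± 0.18. Xbp1 and Hsp90b1 were not called, at 0.19 ± 0.20 and -0.11 ± 0.13.

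**Figure D2:**
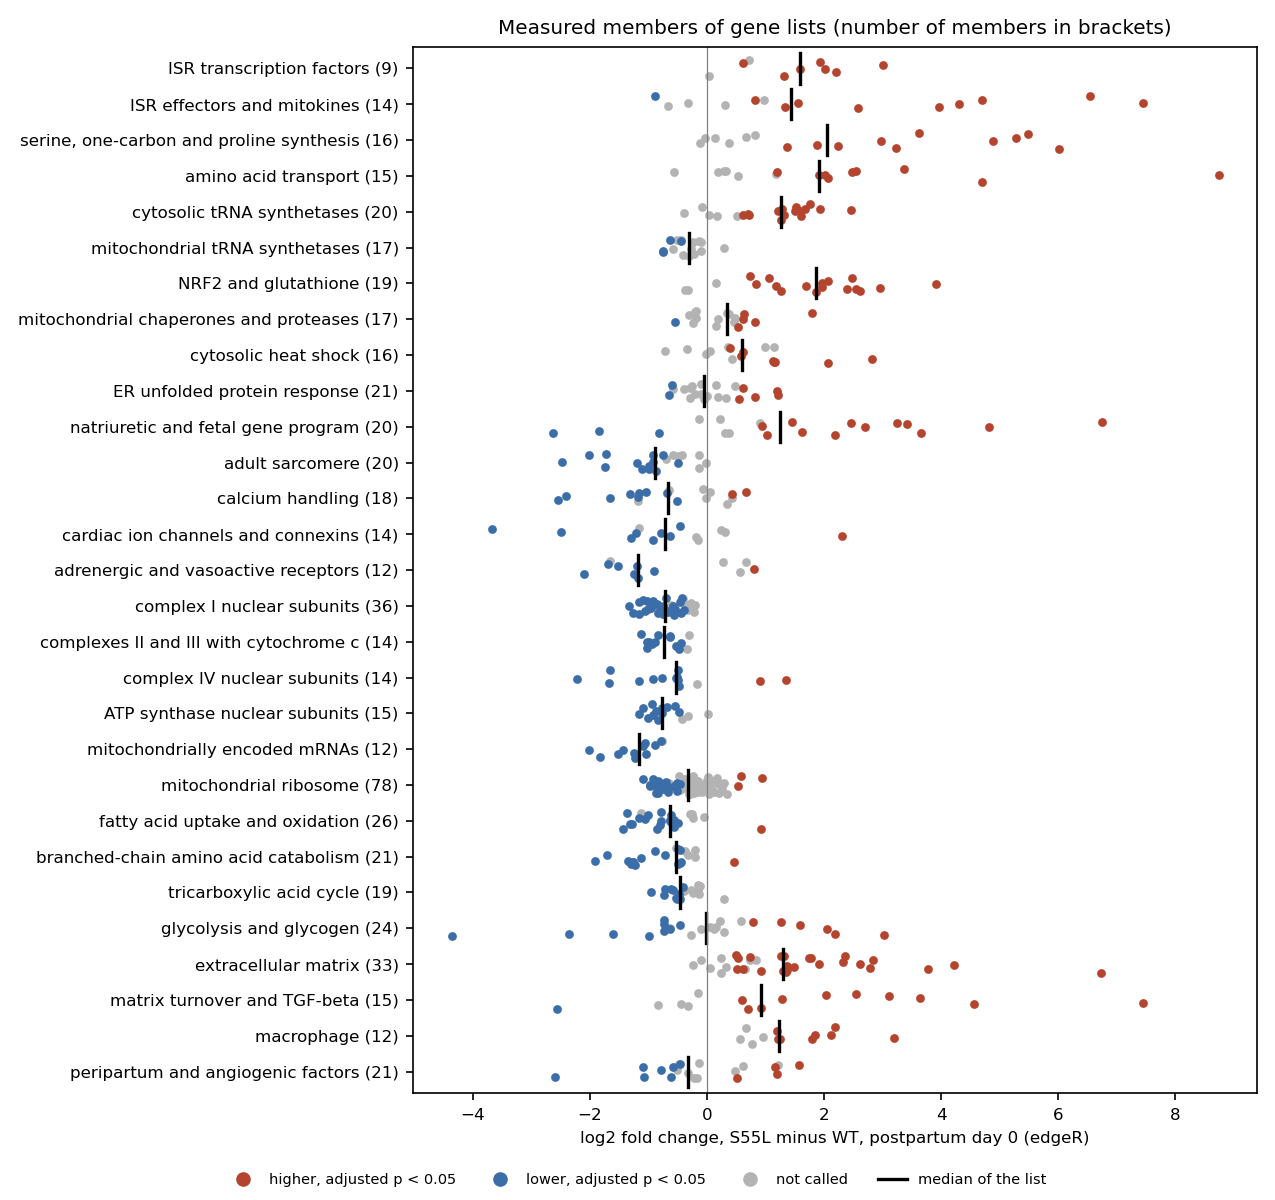
Log2 fold change, S55L minus WT at postpartum day 0, of every measured member of the gene lists shown, with macrophage the only marker list. Red points were called higher, blue points lower and grey points not called, and the black bar is the median of the list. The lists of the integrated stress response, amino acid supply and NRF2 have medians right of 0 and those of the respiratory chain, fuel oxidation and adult sarcomere left of it.

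The fetal gene program of the heart, a set of genes that a loaded or failing ventricle expresses again, moved with the mutation, though not in all members. Of 20 measured members 12 rose and 3 fell, with a median of 1.24. Nppa, the atrial natriuretic peptide gene, was 344, 351, 173 and 833 CPM in WT and 3007, 4925, 5037 and 3237 CPM in S55L. Every mutant library was above every WT library, WT PP 5 was the highest of its group, and the log2 fold change was 3.25 ± 0.61 (adjusted p = 0.000842); with the plate column as a term it was 3.23 with adjusted p = 0.109. Nppb, the ventricular peptide gene, was 121, 69.2, 55.6 and 906.9 CPM in WT and 138, 689, 434 and 242 CPM in S55L. WT PP 5 was above all 4 mutant libraries, and the difference was not called (0.37 ± 0.74, adjusted p = 0.743). Without WT PP 5 it was 2.18 (adjusted p = 0.00514), and without both libraries numbered 5 it was 2.35 (adjusted p = 0.00562); limma voom, which weights libraries by quality, gave 2.26 (adjusted p = 0.0111). Without WT PP 5 the list had 14 members called higher and 3 lower and a median of 2.02.

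The myosin heavy chains moved in opposite directions. Myh7, the slow chain of the fetal mouse ventricle, was 91.8, 94.3, 41.7 and 163 CPM in WT and 1476, 1068, 1735 and 693 CPM in S55L, a 12.6-fold rise without overlap (3.66 ± 0.46, adjusted p = 1.56e-05). Myh6, the adult fast chain, was 14620, 16890, 13410 and 18670 CPM in WT and 7003, 8394, 8450 and 8288 CPM in S55L, 1.98-fold lower and also without overlap (-0.98 ± 0.18, adjusted p = 8.12e-05); the plate term gave -0.82 (adjusted p = 0.0941). Acta1, skeletal actin, was 152, 499, 469 and 827 CPM in WT and 1235, 726, 493 and 1176 CPM in S55L. The groups overlapped and the difference was not called (0.90 ± 0.38, adjusted p = 0.0853), while it was 1.29 (adjusted p = 0.0163) without WT PP 5, 1.10 (adjusted p = 0.0383) without S55L PP 4 and 1.22 (adjusted p = 0.0184) with total counts. Ankrd1, a stretch-responsive titin-binding protein, rose by 2.7 ± 0.28, Uchl1, a deubiquitinase, by 4.82 ± 0.32, and Enah, an actin regulator, by 1.62 ± 0.19. Nmrk2, the muscle nicotinamide riboside kinase, was 6.17, 17.9, 7.25 and 72.8 CPM in WT and 475, 341, 166 and 179.9 CPM in S55L (3.42 ± 0.61, adjusted p = 0.000568). WT PP 5 was again the highest WT library, and with the replicate block the adjusted p of Nmrk2 was 0.0833. The members that fell included Myh7b (-2.63 ± 0.34) and the tubulin Tuba8 (-1.85 ± 0.21).

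Genes of the adult contractile apparatus went down: 13 of 20 fell and none rose (median -0.90). Tnni3, cardiac troponin I, was 3333, 3919, 3745 and 4066 CPM in WT and 1274, 1033, 1204 and 994 CPM in S55L, without overlap (-1.74 ± 0.15, adjusted p = 1.38e-09). Tcap, the titin cap of the Z disc, fell by 2.47 ± 0.33 on the log2 scale, Cmya5, a costamere protein, by 2.02 ± 0.17 and the ventricular light chain Myl3 by 1.73 ± 0.21. The 12 cardiomyocyte markers together summed to 88000 to 107000 CPM in WT libraries and to 40400 to 53000 CPM in S55L libraries, and 11 of them fell and none rose (median -1.18; 7 falls with the plate term). Other lists of cardiomyocyte genes below fell with them, and the part that cell composition has in those falls was not tested.

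Calcium handling and excitation genes went the same way. Of 18 calcium handling genes 9 fell and 2 rose (median -0.67). Hrc, which binds calcium inside the sarcoplasmic reticulum, was 1025, 837, 1103 and 749 CPM in WT and 249, 133, 176 and 138 CPM in S55L, a 5.34-fold fall (-2.42 ± 0.20, adjusted p = 5.31e-10). Ryr2, the calcium release channel, was 1398, 1208, 1134 and 742 CPM in WT and 475, 378, 384 and 186 CPM in S55L (-1.65 ± 0.23, adjusted p = 2.96e-06). WT PP 5 was the lowest WT library for both, and neither gene overlapped. Atp2a2, the calcium pump, fell by 1.17 ± 0.17 (adjusted p = 4.78e-06; -0.86 and adjusted p = 0.0622 with the plate term), and its inhibitor Pln fell by 1.18 ± 0.17. Of 14 ion channel and connexin genes 8 fell and 1 rose (median -0.71), and 5 fell without S55L PP 3, 5 with total counts and 4 with the plate term. The falls included the muscarinic potassium channel Kcnj3 (-2.49 ± 0.22) and the inward rectifier Kcnj2 (-1.29 ± 0.24), while the member that rose was Kcne1, an accessory subunit (2.31 ± 0.34).

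Of 12 receptors and ligands of autonomic and vasoactive control 7 fell and 1 rose (median -1.19), and 3 fell with the plate term. Chrm2, the muscarinic receptor of the heart, was 127, 104, 109 and 85 CPM in WT and 34.1, 21.6, 24 and 19.6 CPM in S55L, a 4.28-fold fall without overlap (-2.1 ± 0.18, adjusted p = 1.21e-09). Adra1b, an alpha-adrenergic receptor, fell by 1.7 ± 0.24. Adrb1, the main beta-adrenergic receptor of the heart, fell by 1.18 ± 0.21 (adjusted p = 7.26e-05), and its adjusted p was 0.138 with the plate term.

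The respiratory chain was lower across its complexes. Of 36 nuclear subunits of complex I 27 fell and none rose (median -0.72), of 14 genes of complexes II and III with cytochrome c 12 fell and none rose (median -0.74), of 14 of complex IV 11 fell and 2 rose (median -0.53), and of 15 of the ATP synthase 12 fell and none rose (median -0.77). With the plate column as a term the falls numbered 10, 2, 3 and 6. With total counts they numbered 18, 6, 6 and 6. In complex IV, 7 fell without WT PP 5 and 7 without S55L PP 4. Ndufb10 and Ndufv2 of complex I fell by 1.03 ± 0.15 and 1.0 ± 0.16, Uqcr11 of complex III by 1.12 ± 0.18, Cox4i1 of complex IV by 1.17 ± 0.17 and Atp5g1 of the ATP synthase by 1.17 ± 0.18. These 5 falls passed the test under every alternative run.

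Within complex IV the paired isoforms separated. Cox7a1, the heart and muscle form, was 2114, 2089, 2332 and 1856 CPM in WT and 551, 397, 503 and 338 CPM in S55L, a 4.69-fold fall (-2.23 ± 0.16, adjusted p = 7.9e-11). Cox7a2, the ubiquitous form, was not called (-0.17 ± 0.17, adjusted p = 0.49). Cox6a1, the ubiquitous form of another subunit, was 167, 333, 322 and 419.6 CPM in WT and 584, 852, 711 and 1019 CPM in S55L and rose (1.35 ± 0.21, adjusted p = 1.48e-05), without overlap. Its muscle form Cox6a2 fell by 0.92 ± 0.25 (adjusted p = 0.00537; 0.0716 with the plate term). Cox8b, the muscle form of another pair, fell by 1.65 ± 0.19.

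Transcripts of the mitochondrial genome fell as well. Reads on mitochondrially encoded genes made up 19.2%, 24.6%, 22.9% and 16.8% of the reads on genes in WT and 9.82%, 14.3%, 15.5% and 9.52% in S55L. The means were 20.9 ± 3.55% and 12.3 ± 3.06% (SD, n = 4 each), a difference of -8.61 percentage points, with no overlap and a 2-sided exact permutation p of 0.0286, the smallest that 4 against 4 allows. As a share of all reads the difference was -4.09 points (exact permutation p = 0.0571, n = 4 each), and the share of all reads that fell on genes itself differed, at 68.2 ± 0.264% in S55L and 59.8 ± 1.21% in WT. Of 12 mitochondrial mRNAs 11 fell and none rose (median -1.16). The complex IV genes mt-Co3 and mt-Co2 fell by 1.25 ± 0.15 and 1.1 ± 0.15, and mt-Nd3 of complex I by 1.52 ± 0.17; mt-Co1 was not called (-0.77 ± 0.34, adjusted p = 0.0935), but was without WT PP 5 (-1.03, adjusted p = 0.00892) and with the replicate block (-0.66, adjusted p = 0.00153).

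Genes that build mitochondria were mixed in what passed. Ppargc1a, a coactivator of mitochondrial biogenesis, fell from 148, 128, 123 and 93.2 to 49.8, 68.8, 60.04 and 57.7 CPM (-1.06 ± 0.17, adjusted p = 2.23e-05). Of 18 genes of mitochondrial gene expression and biogenesis 5 fell and none rose (median -0.33), and 3 fell without WT PP 4, 3 without S55L PP 5 and 2 with total counts. Of 78 mitochondrial ribosomal proteins 22 fell and 3 rose (median -0.33), a split that total counts changed to 13 and 9, the plate term to 7 and 5 (median 0.003) and the replicate block to 34 falls, and Mrpl42 fell by 1.09 ± 0.13. Of 19 genes of CHCHD proteins and of the MICOS complex, which shapes cristae, 7 fell and 2 rose, with a median of -0.27 that total counts turn to 0.01. The 7 falls became 1 with total counts, 1 with the plate term and 4 without S55L PP 3. The 2 that rose were Chchd6, a MICOS subunit (1.51 ± 0.21, adjusted p = 1.98e-06), and Chchd4, of the intermembrane space import pathway (0.87 ± 0.19, adjusted p = 0.000727).

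**Figure D3:**
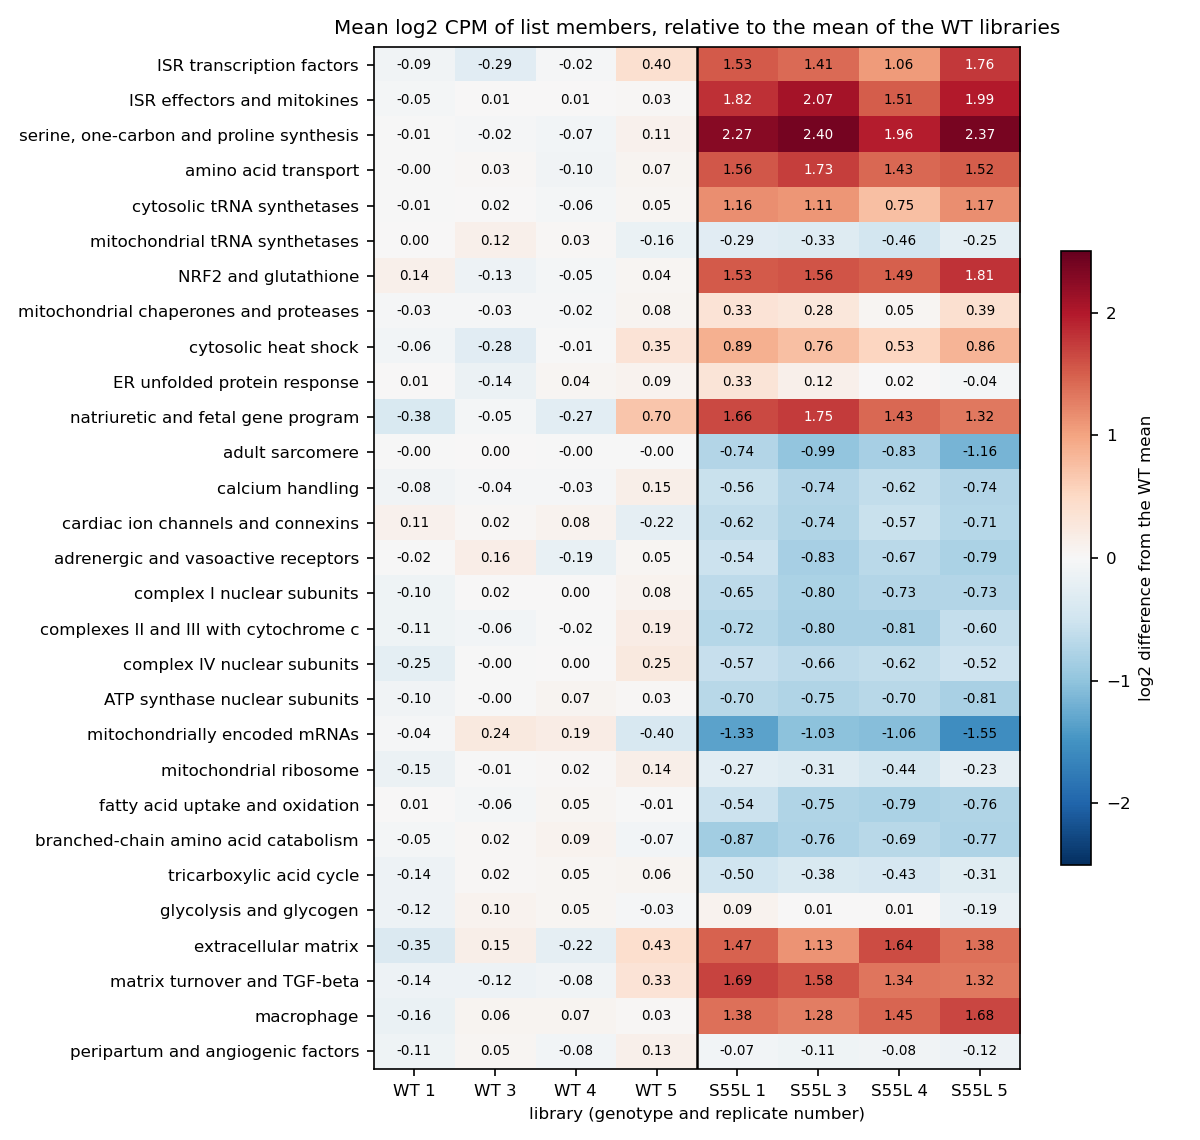
Mean log2 CPM of the measured members of each list in each postpartum library, relative to the mean of the WT libraries; red is higher and blue lower, and the line separates the genotypes. The integrated stress response factors lie between 1.06 and 1.76 in S55L libraries and reach 0.40 in WT PP 5, and the fetal program reaches 0.70 in WT PP 5 against 1.32 to 1.75 in S55L libraries.

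Fuel use genes of the heart, which lives mainly on fatty acids, fell in several pathways. Of 26 genes of fatty acid uptake and oxidation 20 fell and 1 rose (median -0.64), 9 and 1 with the plate term and 11 and 1 with total counts. Acsl1, which activates fatty acids, was 733, 713, 781 and 625 CPM in WT and 303, 279, 284 and 278 CPM in S55L. The mutant libraries lay close together well under the lowest WT library (-1.32 ± 0.14, adjusted p = 3.85e-08). Lpl, lipoprotein lipase, was 9024, 9138, 8608 and 9158 CPM in WT and 3087, 3777, 4695 and 3192 CPM in S55L (-1.28 ± 0.17, adjusted p = 2.07e-06). Acaa2 and Eci1 of beta-oxidation fell by 1.43 ± 0.19 and 1.16 ± 0.16, and Ppara, the receptor that drives these genes, by 1.74 ± 0.34. Pdk4, a kinase that restrains pyruvate oxidation, was not called (0.71 ± 0.33, adjusted p = 0.108; 0.0439 with total counts and 0.0279 with the replicate block), while Pdk2 fell by 1.34 ± 0.23 and the lipid droplet coat gene Plin2 rose by 0.80 ± 0.18.

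Breakdown of branched-chain amino acids moved with them: 15 of 21 genes fell and 1 rose (median -0.52), 8 and 1 with the plate term. Ppm1k, the phosphatase that activates the pathway, was 193, 228, 224 and 127 CPM in WT and 46.7, 57.3, 53.6 and 45.2 CPM in S55L (-1.92 ± 0.18, adjusted p = 2.62e-09). Ivd, of leucine breakdown, fell by 1.71 ± 0.15, and Dbt, a core of the dehydrogenase complex, by 1.27 ± 0.18. None of the 3 overlapped. Of 19 genes of the tricarboxylic acid cycle 11 fell and none rose (median -0.46), but with the plate term none was called and with total counts 3 fell and 1 rose, so no member is given.

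Glycolysis and glycogen genes split, with 6 of 24 higher and 9 lower and a median of -0.03 that was -0.36 without S55L PP 1, -0.30 with the plate term and 0.26 with total counts. Gbe1, the glycogen branching enzyme, was 67.1, 59.2, 77.3 and 83.2 CPM in WT and 482, 549.6, 503 and 794 CPM in S55L, an 8.1-fold rise (3.02 ± 0.18, adjusted p = 1.85e-12). Eno3, the muscle enolase, fell by 2.36 ± 0.22, Slc2a4, the insulin-responsive glucose carrier, by 1.61 ± 0.18, and Pgam1, the ubiquitous phosphoglycerate mutase, rose by 2.06 ± 0.24. Of the energy buffer genes, the adenylate kinase Ak1 and the muscle creatine kinase Ckm fell by 0.97 ± 0.17 and 1.53 ± 0.26. Nampt, the enzyme that limits NAD salvage, had -0.68 ± 0.20 (adjusted p = 0.00874) with overlapping groups, and its adjusted p was 0.143 with total counts, 0.0781 with the plate term and 0.0783 without WT PP 1.

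Genes of the extracellular matrix rose together. Of 33 measured matrix genes 24 rose and none fell (median 1.29). Postn, a matrix protein of activated fibroblasts, was 8.34, 17.3, 11.5 and 15.8 CPM in WT and 57.9, 55, 118 and 130.3 CPM in S55L (2.78 ± 0.34, adjusted p = 2.35e-06). Col1a1, a fibrillar collagen chain, was 77.3, 150.2, 89.99 and 184 CPM in WT and 294, 256, 446 and 301 CPM in S55L (1.37 ± 0.25, adjusted p = 0.000167). Both were separated between the genotypes. Cilp rose by 3.77 ± 0.39, Col8a1 by 2.35 ± 0.25 and Col5a2 by 1.78 ± 0.21. Of 15 genes of matrix turnover and TGF-beta signalling, which again count Gdf15, 10 rose (4 with the plate term) and 1 fell (median 0.92). Inhba, an activin subunit, was 1.45, 2.23, 1.21 and 4.3 CPM in WT and 59.8, 83.6, 36.1 and 51.1 CPM in S55L (4.55 ± 0.37, adjusted p = 1.15e-09). The ligand Tgfb2 rose by 3.1 ± 0.31.

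Markers of other heart cells moved beside these groups. The 12 fibroblast markers summed to 2350 to 2960 CPM in WT and 3550 to 4620 CPM in S55L, with 6 called higher and none lower (median 0.52); Col1a1, Col1a2 and Col3a1 are among both these markers and the matrix list. Of 12 macrophage markers 8 rose and none fell (median 1.23), and they summed to 231 to 363 CPM in WT and 778 to 1060 CPM in S55L. C1qc, a complement component, was 67.8, 117, 96.6 and 83.9 CPM in WT and 224, 293, 332 and 415 CPM in S55L (1.8 ± 0.18, adjusted p = 1.9e-08), and Cx3cr1, a chemokine receptor, rose by 3.2 ± 0.33. Of 11 endothelial markers 3 fell and none rose, with sums of 1376 to 1622 CPM in WT and 834 to 1570 CPM in S55L, which overlap; 6 fell without S55L PP 4 and 5 with the replicate block. Of 11 smooth muscle and pericyte markers 6 fell (3 with total counts) and 1 rose (median -0.77), and the pericyte gene Rgs5 fell by 1.0 ± 0.15. The one that rose was Acta2, smooth muscle actin (2.46 ± 0.49, adjusted p = 0.0012; 0.0809 with the replicate block). Erythroid markers, which follow the blood left in a heart, summed to 840.3 to 6305 CPM in WT and 3671 to 10910 CPM in S55L with none of 5 called. Markers of monocytes and neutrophils reached at most 10 CPM and T and NK cell markers at most 5.58 CPM in any of the 8 libraries. How far cell composition enters the matrix counts was not tested.

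Atrial genes were read separately, since the amount of atrium in a dissected heart can vary. Bmp10, an atrial growth factor of the adult heart, had no reads in WT libraries and 8.11, 11.5, 7.81 and 8.73 CPM in S55L libraries, at least 27.5-fold higher, and Dkk3 rose by 3.61 ± 0.35. Kcnj3, which atria also express strongly, fell. Of 8 atrial markers 5 were measured, and 3 of Myl4, Myl7, Sln and Mybphl did not pass the filter on low counts. Of the 5, Nppa included, 3 rose and 1 fell. They summed to 217 to 865 CPM in WT and 3042 to 5081 CPM in S55L, and most of each sum was Nppa. With all 8 markers the sums were 218 to 865 CPM and 3040 to 5080 CPM, so the 3 that did not pass the filter added little. The share of atrium in these libraries was not tested.

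Genes linked to pregnancy and vessel growth were split: of 21 measured, 4 rose and 7 fell (median -0.32). The falls numbered 4 without WT PP 3, 4 without WT PP 4, 4 without WT PP 5 and 2 with total counts. Vegfa, the main angiogenic factor, was 185, 151, 135 and 238 CPM in WT and 94.8, 81.8, 72.4 and 86 CPM in S55L, a 2.12-fold fall without overlap (-1.09 ± 0.17, adjusted p = 1.53e-05). Angpt1, a vessel-stabilising ligand, fell by 2.6 ± 0.31. Ctsd, the cathepsin that can cleave prolactin, was 762, 736, 736 and 974 CPM in WT and 2166, 2586, 2131 and 2692 CPM in S55L (1.58 ± 0.16, adjusted p = 1.68e-08), and Igfbp5 rose by 1.19 ± 0.19. Prlr, the prolactin receptor, was not called (-0.55 ± 0.24, adjusted p = 0.0853).

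The postpartum difference was then set beside the difference between naive S55L and naive WT hearts, measured in other libraries of the same table. In that comparison plate column and genotype were the same split, with WT naive in column 1 and S55L naive in column 2. Agreement between the 2 comparisons therefore cannot separate plate from genotype. In naive hearts 5192 of 11945 genes were called (43.5%), 2614 higher (21.9%) and 2578 lower (21.6%). Of the postpartum calls, 1672 higher genes (85.7%) and 1543 lower genes (85%) were called in the same direction in naive hearts, which is 64% and 59.9% of the naive calls. No gene was called in opposite directions. The naive log2 fold changes were 2.68 for Atf4, 6.97 for Mthfd2, 3.8 for Chac1, 4.23 for Srxn1, 2.97 for Nppa, 3.76 for Myh7, -2.41 for Cox7a1, -2.67 for Hrc and -1.42 for Acsl1. Each is within 1 log2 unit of its postpartum value given above.

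Called only in postpartum hearts were 279 genes that were higher and 273 that were lower. A call in 1 state alone does not show a difference between the states, so the interaction was tested: no gene had an adjusted p below 0.05 with edgeR, 444 genes (3.72%) had an unadjusted p below 0.05, DESeq2 called 1 gene and limma voom none. The lowest adjusted p was that of Ucp3, an uncoupling protein of muscle mitochondria. Ucp3 averaged 56.7 ± 13.4 CPM in WT naive and 18.3 ± 1.69 CPM in S55L naive hearts (SD, n = 5 each), and 12.7 ± 2.28 CPM in WT PP and 14.1 ± 5.61 CPM in S55L PP hearts (SD, n = 4 each). The genotype difference was -1.63 (adjusted p = 1.49e-07) outside pregnancy, and 0.12 ± 0.25 and not called after delivery (adjusted p = 0.755). The interaction was 1.75 ± 0.31 with adjusted p = 0.0736 in edgeR and 0.00294 in DESeq2. It was called without WT naive 5 (0.0256), WT PP 1 (0.0296), S55L PP 1 (0.0113) or S55L PP 3 (0.0382), and not without any other single library. It was also called with no filter on low counts (0.000161) and without both libraries deposited in identical pairs (0.00414), which are WT PP 1 and S55L PP 1. The plate term, which also set WT PP 1 aside, gave an interaction of 2.51.

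Other genes with low unadjusted interaction p-values had an adjusted p of 0.997. Among them, Scd4, a fatty acid desaturase, had 2.4 ± 0.33 postpartum against 0.70 in naive hearts, with a postpartum adjusted p of 0.162 under the plate term. Sox18, an endothelial transcription factor, had -1.58 ± 0.35 against 0.34 (postpartum adjusted p = 0.208 under the plate term), and Cd74, the invariant chain of class II antigen presentation, -0.63 ± 0.37 against 1.03. Shank3 had -4.02 ± 0.58 against -1.5. The interaction of these 4 genes did not pass the test with the filter, but all 4 passed with no filter on low counts, where the adjusted p was 3.08e-06 for Sox18, 0.000672 for Scd4 and for Shank3, and 0.00116 for Cd74. Sox18 also passed without both libraries deposited in identical pairs (0.0472), and none of the 4 passed under any other setting run. Tfrc, the transferrin receptor, chosen after its values were seen, was 25.03 CPM in WT PP 1 and 194 to 218 CPM in the other 3 WT libraries. Its interaction was -2.07 (adjusted p = 0.997). It was called without WT PP 1 (-2.43, adjusted p = 8.58e-06) and without both libraries of identical pairs (-2.4, adjusted p = 1.64e-05). Both settings left out WT PP 1. That library is also the only WT PP one in plate column 2, so the plate term (-2.62) set it aside as well.

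**Figure D4:**
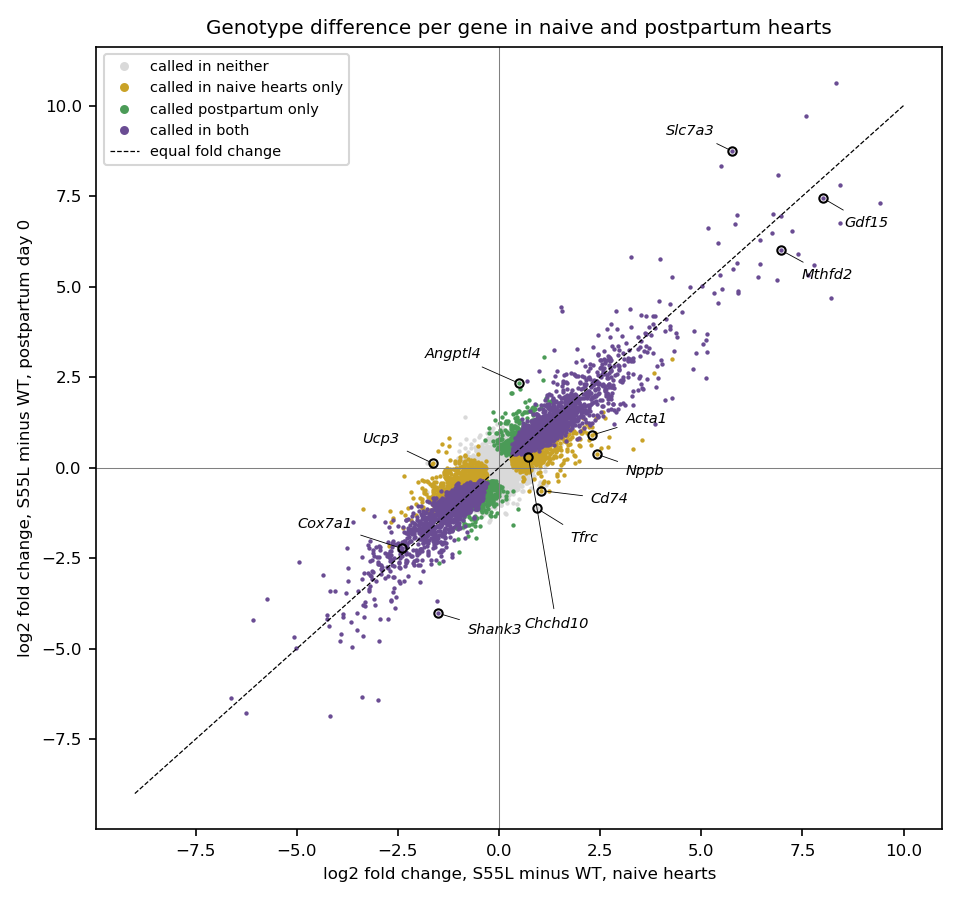
Log2 fold change of each tested gene, S55L minus WT, in naive hearts (horizontal axis) and at postpartum day 0 (vertical axis); colours show in which state a gene was called at an adjusted p below 0.05, and the dashed line marks equal fold changes. Most genes called in both states lie along the dashed line at the upper right and lower left, and Ucp3 lies on the naive axis at -1.63 with a postpartum value of 0.12.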

How the data were processed

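The heart libraries were made from 500 ng of total RNA (Qiagen RNeasy Mini) with the Lexogen QuantSeq 3' mRNA FWD kit, per the labels' protocols. The authors deposited raw read counts per gene. Trimmomatic 0.39, STAR 2.7.0f, HTSeq 0.6.1 and DESeq2 3.21, with build GRCm39.p6, are named in the submitters' processing notes; annotation release, strand setting and counting mode are not given in the sources used here, so overlapping and near-identical genes are uncertain. Reads aligned to several places (17.5% to 27.3% of all reads), to several genes (4.45% to 7.08%) and to no gene (5.65% to 9.90%) stayed out of library sizes and tests.

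Gene symbols were matched by Ensembl ID to a reference table (51487 of 78258 IDs, 99.4% of reads). The design had foreseen 20 libraries; 18 were fitted, because columns 1 and 2 of WT PP and of S55L PP were identical and entered once. No other pair within WT PP or within S55L PP agreed within counting noise (lowest chi-square per gene 2.32). Naive libraries were checked only for identical columns. All 4 groups of that table, naive and postpartum, entered 1 fit with filterByExpr, TMM scaling and the edgeR 4.0.16 quasi-likelihood test (R 4.3.3, robust) and adjusted by Benjamini-Hochberg over all 11945 genes, with a threshold of 0.05. SE is the log2 fold change over the square root of F, CPM use TMM-scaled library sizes, and the common biological coefficient of variation was 0.199. Where WT had no reads a fold was set against 3 counts over the group; counting intervals (95%) and floors cover counting error only. Shares of reads were compared with 2-sided exact permutation tests.

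In all 4 pairs of the same number, deviations from the group mean correlated between WT PP and S55L PP (r = 0.119 to 0.333). Between unlike numbers r was -0.199 to 0.246, so the ranges overlapped. The number was entered as a pairing only in the replicate block, and the main fit used no pairing. The labels do not say what the number stands for. Alternatives were DESeq2 1.42.0 (size factors and test), limma 3.58.1 voom with quality weights, total counts, no filter, no mitochondrially encoded genes, the plate column (taken from the well in each column name), the replicate block, only the 2 compared groups, thinned counts, all deposited columns, and each library left out. Chosen after seeing the data were leaving out the libraries of identical pairs or those numbered 5, and the gene lists under each setting. Tests were tried on simulated counts. The genes and lists were chosen with earlier results of these data known. Named are the 10 largest rises and falls with a mean of at least 5 CPM, no overlap and a proper symbol (no Gm, Rik, pseudogene or clone name), up to 5 called members of each list by adjusted p, any member not called, up to 8 interaction genes per direction and a fixed panel; not all are printed.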

Additional observations from a re-analysis of the deposited data

Results flagged for a closer look

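Within each group of 4 libraries, a value was marked when the gap from the highest or lowest library to its nearest neighbour exceeded Dixon's 95% limit for 4 values, which chance does in about 1 in 20 groups. Of 350 groups checked (each named gene in both genotypes, and shares of reads), 26 were marked, and 12 of these values came from WT PP 5. Krt18, Ltbp2 and Ostn had 1 WT read each and Gsta2 had 2, all in 1 library. The mark was therefore automatic for these genes.

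WT PP 5 stood above the other WT libraries for Nppb (906.9 CPM), Pln (6453 CPM), Ctsd (974.3 CPM), Prdx1 (431.4 CPM), Srxn1 (17.6 CPM), Serpina3n (11.5 CPM), Gdf15 (2.87 CPM), Gsta2 (0.717 CPM), Krt18 (0.359 CPM) and Ltbp2 (0.359 CPM), and for the share of its reads that fell on genes (61.6%). It stood below them for Eno3 (1026 CPM). Of these 11 genes 8 were called higher in S55L, so that WT PP 5 lay toward the mutant for these 8. For Gsta2, Krt18 and Ltbp2 it did so by only 1 or 2 reads. WT PP 5 also lay toward the mutant for Eno3, which was lower in S55L, and away from it for Pln. For Nppb the genotypes overlapped.

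Other WT libraries stood apart for 4 genes: Igfbp5 was high in WT PP 1 (53.3 CPM), Ostn was high in WT PP 4 (0.604 CPM), and Ctsl (98.3 CPM) and Scd4 (3.35 CPM) were low in WT PP 3. In the mutant, S55L PP 1 was high for Atp5g1 (2043 CPM) and Ppara (18.2 CPM) and low for Myh6 (7003 CPM). S55L PP 3 was high for Slc3a2 (244 CPM), Slc38a1 (83.1 CPM) and Angpt1 (4.72 CPM). S55L PP 4 was high for Col5a2 (131.7 CPM) and Cenpf (10.5 CPM), and S55L PP 5 for Cd74 (9.67 CPM) and Ces1d (8.11 CPM). Each gene except Nppb and Cd74 remained called in the comparison of genotypes.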

How the results depend on the processing

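The count of genes called at postpartum day 0 was 1951 higher and 1816 lower. Total counts gave 3458 and 977, and the plate column as a term 1070 and 1038, with 43.4% of the calls kept; in naive hearts these settings gave 4013 and 1481, and 1386 and 1487. The replicate block, on the 2 compared groups, gave 1986 and 1906 with 89.3% of calls kept, and ended the calls of Nmrk2 and Acta2 among the genes named and made calls of Pdk4 and mt-Co1; it changed no other call of a named gene. Fitting only the 2 compared groups, without the naive libraries, gave 1426 higher and 1274 lower with 71.3% of calls kept. Leaving out each library in turn gave 1621 to 2077 higher and 1465 to 2069 lower. The other settings stayed within 1.5 times, and no call took the opposite direction under any setting run. Genes whose genotype difference differed between the states numbered 0 higher and 0 lower. They were 2 and 3 without a filter on low counts, 1 and 0 with DESeq2, 1 and 1 with the plate column, and 1 and 2 without the libraries deposited in identical pairs; leaving out 1 library gave 0 to 1 in each direction. The difference in the share of mitochondrially encoded reads, -8.61 points, was -4.09 (exact permutation p = 0.0571) over all reads and -7.36 to -9.97 with 1 library left out (exact permutation p = 0.0286 or 0.0571, the latter without WT PP 3, S55L PP 1, S55L PP 3 or S55L PP 5). Of 173 genes checked, 152 stayed called, or stayed not called, in every setting that measured them. No gene that was called in the main fit or in the alternative changed direction between them. Genes called in neither could change sign, as Chchd2 (-0.20 to 0.35) and Gpx4 (-0.75 to 0.47) did. The plate term moved list medians to -0.46 for complex I, -0.44 for complexes II and III, -0.23 for complex IV, -0.24 for the tricarboxylic acid cycle, -0.18 for mitochondrial tRNA synthetases, 0.11 for mitochondrial chaperones, -0.07 for CHCHD and MICOS genes, -0.64 for autonomic receptors, 1.86 for the fetal program, 2.06 for macrophage, 0.87 for fibroblast and -1.36 for smooth muscle markers. These medians rest on WT PP 1 against S55L PP 5 alone, as stated above, and the causes of the shifts were not tested. Counting depth limits genes with few reads: 11 genes called higher had no WT read and 30 had 1 to 3.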

Other observations

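Genes of autophagy and the lysosome were measured as a further group: 9 of 19 rose and 3 fell (median 0.42). Gpnmb, a lysosomal glycoprotein of stressed cells and of macrophages, was 0.363, 0.558, 0.604 and 0.359 CPM in WT PP 1, 3, 4 and 5 and 27.9, 29.9, 13.7 and 24.3 CPM in the same-numbered S55L libraries, without overlap (log2 fold change 5.63 ± 0.45, adjusted p = 3.3e-10). The lysosomal protease gene Ctsl rose by 1.04 ± 0.17, and Pink1, the kinase that marks damaged mitochondria for removal, fell from 455, 389, 437 and 424 to 161, 174, 206 and 205 CPM (-1.19 ± 0.17, adjusted p = 3.93e-06). Of 8 measured genes of the acute phase and remodeling 4 rose and none fell (2 with the plate term): Serpina3n, a secreted protease inhibitor, rose by 2.86 ± 0.36 and complement C3 by 1.41 ± 0.22.

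Most cell cycle genes leaned higher: of 16 measured, 14 had a log2 fold change above 0, 6 were called higher and 1 lower (median 0.82). With total counts 11 rose, and the plate term gave a median of 1.22. Cdk1, the mitotic kinase, was 3.26, 5.02, 10.3 and 2.87 CPM in WT and 12, 15.7, 34.2 and 37.4 CPM in S55L (2.31 ± 0.43, adjusted p = 0.00025), while Cenpf, a kinetochore protein, was 48.6, 35.2, 27.2 and 17.2 CPM in WT and 6.43, 6.29, 10.5 and 5.92 CPM in S55L (-2.13 ± 0.32, adjusted p = 1.8e-05). Neither gene overlapped between the genotypes. Of 12 p53 targets 5 rose and 1 fell (3 rose with the plate term), among them Mdm2, the p53 ubiquitin ligase (0.67 ± 0.17), and Zmat3 (0.99 ± 0.28). Of 16 clock genes 5 fell and none rose (median -0.53; 8 fell without WT PP 5 and 1 with the plate term), and Hlf, an output factor of the clock, fell by 2.73 ± 0.41. The labels do not give the time of day at which hearts were taken.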
